A study of Mus musculus with 30 samples.

Results

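Lrrk2 knockout (KO) and wild-type microglia were compared within cultures that had received α-synuclein fibrils, with 5 KO libraries and 4 wild-type libraries out of the 30 libraries of the series. The members were all libraries with Syn in their titles, the cultures given fibrils. This comparison and the gene lists were chosen with earlier results of these data known. The cells were primary microglia from postnatal brain of C57BL/6 mice at postnatal day 21, either Lrrk2-/- or wild type. The other 21 libraries were KO controls (6), wild-type controls (5), KO cultures with lipopolysaccharide (LPS, 4) and wild-type cultures with LPS (6), and they are used here for the spread between replicates and for tests of whether the genotype difference depended on treatment. Total RNA depleted of ribosomal RNA was sequenced, so each library averages over all cells of a culture. The sources used here give neither the dose and duration of fibril treatment nor the sex of the mice, how the knockout allele was made or whether controls received a vehicle. The labels also do not say whether replicates came from separate cultures or animals, so p-values measure only the spread between these libraries, which may be technical.

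LRRK2 is a large protein with kinase and GTPase domains that phosphorylates a set of Rab GTPases on membranes, and dominant mutations that raise its kinase activity cause Parkinson's disease. In myeloid cells it has been studied mainly at lysosomes, in phagocytosis and in inflammatory signalling. Fibrils of α-synuclein, the main component of Lewy bodies, are taken up by microglia and can engage Toll-like receptors and the inflammasome. Cultures of primary microglia are prepared from whole brain tissue, which also holds astrocytes, cells of the oligodendrocyte lineage, neurons, vascular cells and the fibroblasts of the meninges, so marker genes of those cells were followed beside the microglial genes.

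Gene counts ranged from 19314337 to 22800537 in the KO fibril libraries and from 17976089 to 35677005 in the wild-type ones. Levels are given as counts per 1000000 (CPM, scaled by TMM factors), with KO replicates 1 to 5 and wild-type replicates 1 to 4 always in that order. Differences are log2 fold changes, KO minus wild type, ± standard error (SE) from edgeR's quasi-likelihood test, and a gene is said to have risen or fallen only where its Benjamini-Hochberg adjusted p over the 14346 genes tested was under 0.05. The 4 wild-type fibril libraries were more alike than the libraries of any other group, with a biological coefficient of variation of 0.0805 against 0.367 in KO fibril libraries and 0.252 to 0.365 in the other 4 groups. They still differed by more than sampling noise, with 8.80 to 31.3 chi-square units per gene between pairs, and were kept as 4 samples. KO replicate 5 was one of 7 libraries of the series that an earlier analysis had set apart.

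The microglial label was checked first. Of 15 microglial marker genes 14 were tested, and their summed level was 5318, 6522, 5703, 7720.3 and 5889.6 CPM in KO and 7414, 7570.4, 7499.6 and 7747 CPM in wild-type libraries, overlapping in 1 KO library. Csf1r was 1387, 1254, 812, 955 and 738 CPM in KO replicates 1 to 5 and 1862, 1915, 1848 and 2033 CPM in wild-type replicates 1 to 4. Csf1r encodes the receptor for the survival factors CSF1 and IL-34, and its ranges did not overlap. Cx3cr1 was 102, 96.8, 40.6, 139 and 37.9 CPM in KO replicates 1 to 5 and 90.7, 95.3, 96.6 and 95.3 CPM in wild-type replicates 1 to 4, with overlapping ranges for this fractalkine receptor. The homeostatic markers P2ry12 and Tmem119 were present at few counts in both genotypes, P2ry12 at 0.628 to 4.24 CPM in KO and 2.25 to 3.22 CPM in wild type, and Tmem119 at 2.22 to 9.00 and 5.66 to 7.47 CPM. Among the microglial markers Csf1r was the only one past the threshold (-0.90 ± 0.16, adjusted p = 0.00179). DESeq2 called 1 marker higher and 1 lower, limma-voom 1 lower, and limma-voom with a separate weight for each group 1 higher and 2 lower. Without the 7 libraries set apart 2 were higher and 1 lower. Markers of erythroid cells were at 0 to 0.0522 CPM in sum, and those of lymphocytes and granulocytes at 0.385 to 2.43 CPM.

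The targeted gene was lower in every KO library. Lrrk2 was 1.61, 1.26, 1.05, 0.732 and 1.88 CPM in KO replicates 1 to 5 and 9.49, 7.56, 6.87 and 7.87 CPM in wild-type replicates 1 to 4, a log2 difference of -2.60 ± 0.24 (adjusted p = 1.05e-07), or 6.09-fold lower in KO by the ratio of means. The gene lies at chr15:91673175-91816120 (mm10). In all, 140 raw counts were assigned to Lrrk2 in the 5 KO libraries and 723 in the 4 wild-type libraries, of which 108 and 701 were on the transcript ENSMUST00000060642. The paralog Lrrk1 differed by -0.13 ± 0.15 (adjusted p = 0.656), with ranges of 16.3 to 28.0 CPM in KO and 24.4 to 26.1 CPM in wild type.

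With fibrils, 1282 of 14346 genes differed between genotypes (8.94%), 756 higher in KO (5.27%) and 526 lower (3.67%). Among the lists followed here, 10 of 14 astrocyte markers and 9 of 11 fibroblast markers rose, and 10 of 18 glycolytic genes fell. In 1068 genes (7.44%) every KO library lay above every wild-type library, and in 1129 genes (7.87%) every KO library lay below. The number of calls depended on single libraries: it was 375, 419, 475 and 479 without wild-type replicates 1, 2, 3 and 4, 742 without KO replicate 1, 651 without KO replicate 3, and 1162 without KO replicate 5. It was 575 with limma-voom (116 higher) and 1957 with DESeq2 (1360 higher). The 526 lower genes became 311 without KO LPS replicate 3 and 311 without wild-type control replicate 5. When only library size was used for scaling, the median over all genes went from 0.01 to 0.16, with 1027 genes higher against 190 lower (84.4% higher in place of 59.0%).

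RNA of other brain cells was more abundant in the KO fibril libraries. Of 14 astrocyte markers tested 10 rose and none fell, where 5.27% of all genes rose, with a median log2 difference of 4.28 (4.17 with the gene that had no wild-type counts put at its bound) against 0.01 over all genes. Gfap was 98.4, 26.0, 56.2, 22.8 and 23.6 CPM in KO replicates 1 to 5 and 0.312, 1.49, 1.34 and 1.59 CPM in wild-type replicates 1 to 4. Gfap encodes the intermediate filament of astrocytes, and the lowest KO library was above the highest wild-type one (5.26 ± 1.23, adjusted p = 0.0124). Aqp4 was 51.0, 12.01, 34.7, 8.73 and 13.7 CPM in KO replicates 1 to 5 and 0.312, 1.34, 1.701 and 1.90 CPM in wild-type replicates 1 to 4 (4.21 ± 1.14, adjusted p = 0.0234). Aqp4 is the water channel of astrocyte endfeet. The glutamate transporters Slc1a3 and Slc1a2 rose by 4.13 ± 1.001 (adjusted p = 0.014) and 4.397 ± 0.91 (adjusted p = 0.00618). Summed over the list, astrocyte markers reached 362, 112, 206, 71.7 and 98.9 CPM in KO and 17.1, 25.1, 24.0 and 24.2 CPM in wild-type libraries.

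Fibroblast and leptomeningeal markers showed the same order with the lowest wild-type values. Of 11 tested 9 rose, where 5.27% of all genes did, with a median of 4.93. Col1a2 was 29.4, 6.91, 19.2, 5.28 and 19.6 CPM in KO replicates 1 to 5 and 0.178, 0.213, 0 and 0.106 CPM in wild-type replicates 1 to 4. This gene encodes a chain of type I collagen (6.78 ± 1.39, adjusted p = 0.00609). Col3a1 was 20.9, 5.69, 19.8, 13.5 and 29.3 CPM in KO replicates 1 to 5 and 0.134, 0.275, 0.182 and 0.370 CPM in wild-type replicates 1 to 4 (6.17 ± 1.21, adjusted p = 0.00473), a fibrillar collagen. Dcn was 2.59, 1.21, 4.10, 3.08 and 6.65 CPM in KO replicates 1 to 5 and 0.0891, 0.122, 0.243 and 0.106 CPM in wild-type replicates 1 to 4 (4.64 ± 0.96, adjusted p = 0.00615). Dcn encodes decorin, a proteoglycan that binds collagen. Col1a1 (7.12 ± 1.61, adjusted p = 0.00999) and Col6a1 (4.93 ± 0.96, adjusted p = 0.00467) rose too. The summed list was at 91.2, 24.4, 66.2, 28.7 and 80.8 CPM in KO and at 1.02, 1.28, 0.911 and 1.32 CPM in wild type, so KO replicates 1, 3 and 5 were highest.

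**Figure D1:**
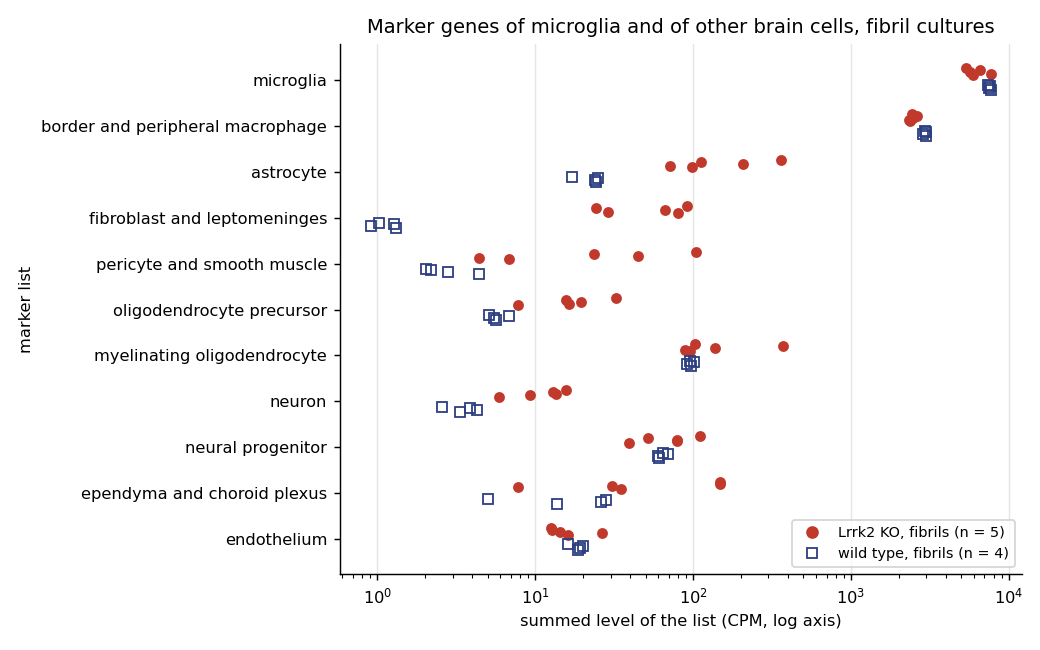
Summed CPM (log axis) of 11 marker lists in each fibril library, KO as filled circles and wild type as open squares. Astrocyte, fibroblast, oligodendrocyte precursor and neuron lists lay higher in all 5 KO libraries than in all 4 wild-type libraries. The pericyte list touched, at 4.3888 CPM in KO replicate 4 and 4.3866 CPM in wild-type replicate 4. The myelinating, neural progenitor, ependymal and endothelial lists overlapped.

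Other lists of brain cells differed in how many KO libraries were high. Over all genes tested, 5.27% rose. Of 7 oligodendrocyte precursor markers 5 rose (median 4.20), among them Pdgfra, the PDGF receptor of these cells, at 1.83, 0.795, 1.90, 1.46 and 1.69 CPM in KO and 0.0891, 0.0610, 0 and 0 CPM in wild type (4.99 ± 1.09, adjusted p = 0.00879). Ptprz1, a receptor phosphatase (4.20 ± 0.96, adjusted p = 0.0105), the transcription factor Olig1 (4.46 ± 1.10, adjusted p = 0.015) and C1ql1 (3.01 ± 0.91, adjusted p = 0.0387) rose as well. Olig2 had 62 counts in KO and 1 in wild type, a ratio of 52.9 with a 95% counting interval of 9.15 to 2123 (adjusted p = 0.0264). Of 13 markers of myelinating oligodendrocytes none passed the test in edgeR or limma-voom, 8 had an unadjusted p under 0.05, and DESeq2 called 7 higher. Mbp was 56.1, 120.3, 49.7, 38.5 and 29.4 CPM in KO replicates 1 to 5 and 50.4, 52.7, 48.0 and 51.8 CPM in wild-type replicates 1 to 4 (0.21 ± 0.40, adjusted p = 0.79), so myelin basic protein overlapped between genotypes. Mog and Ugt8a had no count in any wild-type library and were at 0.0892, 6.78, 1.60, 0 and 0.0963 and 1.52, 10.30, 3.90, 0.104 and 0.193 CPM in KO libraries. Against a floor of 3 counts over the wild-type group this was at least 56.3-fold and at least 104-fold higher, without passing the test (adjusted p = 0.0989 and 0.0768). Cldn11, the claudin of myelin, had 275 counts in KO and 1 in wild type, a ratio of 235 with an interval of 41.8 to 9301 (adjusted p = 0.0566), and Sox10 had 41 and 3 (ratio 11.7, interval 3.72 to 58.9, adjusted p = 0.165).

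Of 5 pericyte and smooth muscle markers 3 rose, Pdgfrb (2.60 ± 0.68, adjusted p = 0.0203), the contractile gene Cnn1 (5.14 ± 1.59, adjusted p = 0.0415) and Tagln, and Tagln was 45.6, 8.41, 18.8, 1.31 and 2.99 CPM in KO replicates 1 to 5 and 0.312, 0.397, 0.486 and 0.740 CPM in wild-type replicates 1 to 4, with KO replicates 4 and 5 nearest to wild type. Of 7 neuronal markers 3 rose, the microtubule genes Map2 (3.56 ± 0.84, adjusted p = 0.0128), Tubb3 (3.42 ± 0.81, adjusted p = 0.0128) and Stmn2 (3.70 ± 1.09, adjusted p = 0.034). Of 6 neural progenitor markers 4 rose, Sox2 (3.77 ± 1.08, adjusted p = 0.0302), Fabp7 (3.16 ± 0.90, adjusted p = 0.0282), Egfr (2.62 ± 0.74, adjusted p = 0.028) and Pax6, which had 44 KO counts and 1 wild-type count and met the threshold narrowly (adjusted p = 0.0495). The endothelial cadherin Cdh5 was the only one of 6 endothelial markers to rise (2.72 ± 0.77, adjusted p = 0.0281), and the median of that list was -0.10. The shares that rose were 60% of pericyte, 42.9% of neuronal, 66.7% of neural progenitor and 16.7% of endothelial markers, against 5.27% of all genes. None of 7 markers of ependyma and choroid plexus was called by edgeR (2 at an unadjusted p under 0.05, 1 by DESeq2, 0 by limma-voom), and the nearest, the ciliary factor Foxj1, had adjusted p = 0.0518. Kl had 46 KO counts and 2 wild-type counts (ratio 19.6, interval 5.13 to 167, adjusted p = 0.148). Markers of border and peripheral macrophages did not rise, and all 9 tested had differences below 0 (-0.75 to -0.06). Their sum was 2428, 2623, 2467, 2323 and 2375 CPM in KO and 2934, 2992, 2846 and 2975 CPM in wild type, lower in every KO library. None of the 9 passed in edgeR, DESeq2 or limma-voom (2 at an unadjusted p under 0.05, Mrc1 -0.39 ± 0.15, adjusted p = 0.1, and Stab1 -0.39 ± 0.19, adjusted p = 0.191). In limma-voom with a separate weight for each group 1 was called lower, as without the 7 libraries set apart. In bulk RNA, more cells of a type and more RNA per cell cannot be told apart.

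The number of these calls depended on the wild-type libraries, in which the markers had few counts. Leaving out wild-type replicate 1, 2, 3 or 4 left 1, 3, 4 or 4 astrocyte markers called and 7 or 8 fibroblast markers, and limma-voom called none of either list, nor any precursor, neuronal, neural progenitor, pericyte or endothelial marker, while DESeq2 called 12 and 10 and limma-voom with a separate weight for each group called 10 and 5. Leaving out KO replicate 1, the library with the highest astrocyte sum, left 6 astrocyte markers and 3 precursor markers. Precursor calls were 2 or 3 without any 1 wild-type library, neural progenitor calls were 0 without KO replicate 1 or 3 or any 1 wild-type library, neuronal calls were 0 without wild-type replicate 1, and pericyte calls were 0 or 1 without KO replicate 1 or any 1 wild-type library. The Cdh5 call was lost without KO replicate 1 or 3 or any 1 wild-type library, and 2 endothelial markers were called without wild-type control replicate 6 or KO replicate 5 (1 higher and 1 lower without the latter). The Pax6 call was also lost without KO replicate 5 (adjusted p = 0.0533).

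Where edgeR's average log2 CPM over all libraries was 2 or more, and apart from numbered gene models, the 10 called genes with the largest rise were Col1a1, Cd209f, Col1a2, Ccn2, Col3a1, Nid1, Gfap, Chst2, Fbn1 and Tagln, most of them genes of matrix, vessel wall or glia. None of these 10 was called by limma-voom (adjusted p = 0.178 to 0.458). The fibrillin gene Fbn1 was 19.1, 3.98, 12.9, 1.57 and 5.92 CPM in KO replicates 1 to 5 and 0.267, 0.275, 0.304 and 0.159 CPM in wild-type replicates 1 to 4 (5.07 ± 1.12, adjusted p = 0.00938). Nidogen-1 of basement membranes, Nid1, was at 28.0, 6.03, 16.7, 1.57 and 6.26 CPM in KO and 0.0445, 0.397, 0.182 and 0.423 CPM in wild type (5.42 ± 1.04, adjusted p = 0.00411). Ccn2, which encodes a matrix-associated growth factor, had 250 KO counts and 2 wild-type counts, a ratio of 107 with an interval of 29.2 to 886 (adjusted p = 0.021). The sulfotransferase gene Chst2 rose by 5.14 ± 1.23 (adjusted p = 0.0133). Cd209f was 2.81, 4.396, 6.80, 9.35 and 39.9 CPM in KO replicates 1 to 5 and 0, 0.0305, 0.121 and 0.317 CPM in wild-type replicates 1 to 4 (6.86 ± 1.77, adjusted p = 0.0191), with KO replicate 5 highest for this C-type lectin gene.

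A score of other-cell RNA, the mean log2 CPM of 45 tested markers of astrocytes, oligodendrocyte precursors, myelinating oligodendrocytes and fibroblasts, placed this difference among the other groups. It was 0.28 to 2.02 in KO fibril and -1.67 to -1.34 in wild-type fibril libraries. In wild-type controls it was -1.26 to 2.31, in wild-type LPS cultures -1.92 to 2.45, in KO controls 0.24 to 3.17 and in KO LPS cultures -0.47 to 2.43. The KO fibril libraries thus lay within the range of the KO controls, whereas all 4 wild-type fibril libraries lay below all wild-type controls and below 5 of 6 wild-type LPS libraries. Gfap was lowest in wild-type fibril libraries and in part of the wild-type LPS libraries, at 0.312 to 1.59 CPM in wild-type fibril, 22.8 to 98.4 CPM in KO fibril, 3.04 to 67.7 CPM in wild-type control, 0.288 to 101 CPM in wild-type LPS, 13.4 to 76.2 CPM in KO control and 6.48 to 56.8 CPM in KO LPS libraries.

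**Figure D2:**
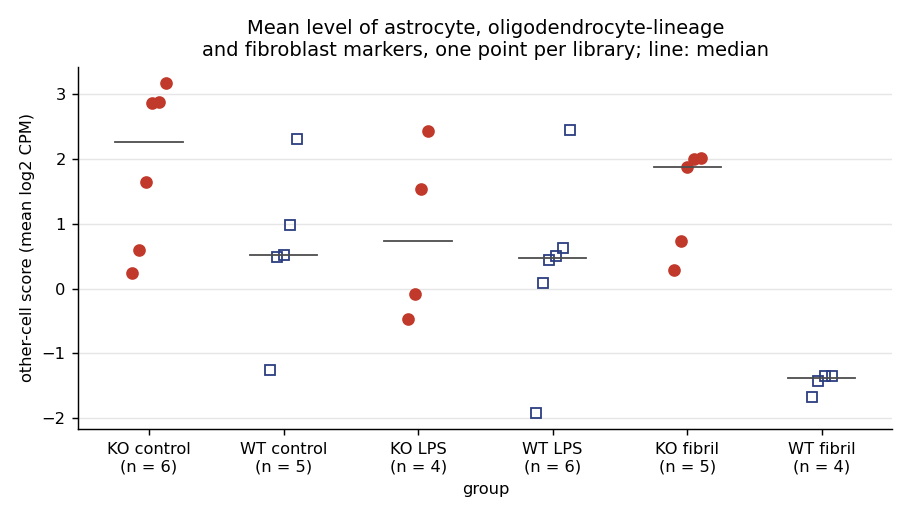
Other-cell score (mean log2 CPM of 45 markers) for each of the 30 libraries by group, with the group median as a line. The 4 wild-type fibril libraries sit between -1.67 and -1.34, below all 5 KO fibril libraries.

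Each gene's correlation with this score was then taken over the 21 control and LPS libraries, as deviations from group means, so that no fibril library entered. It is a description over libraries that share culture, depth and RNA composition. Of the 732 genes that rose with fibrils and were not in the score, 522 (71.3%) had a correlation of at least 0.7, against 1309 of 14301 (9.15%) over all genes. Of the 526 genes that fell, none did, and 115 (21.9%) had a correlation of -0.7 or lower, against 3.08% over all genes. Genes with such values included Fbn1 (0.84), Tagln (0.92) and Nid1 (0.91) among those that rose, and Hvcn1 (-0.86), Prdx1 (-0.86) and Csf1r (-0.73) among those that fell. The gene groups that follow were measured in these same libraries, in which genotype and the other-cell markers cannot be told apart.

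In disease-associated microglia phagocytic and lipid-handling genes are raised. Of 21 genes of this state 4 fell, none rose and 17 did not pass, where 3.67% of all genes fell, with a median of -0.52. In 9 every KO library was below every wild-type one, against 7.87% of all genes. Spp1 was 1553, 2019, 1347, 2708 and 1477 CPM in KO replicates 1 to 5 and 5553, 5603, 5543 and 5006 CPM in wild-type replicates 1 to 4. Osteopontin, its product, is a secreted matrix protein of activated microglia, and its mean was 2.98-fold lower in KO (-1.58 ± 0.48, adjusted p = 0.0384). Clec7a was 159, 289, 107, 225 and 88.5 CPM in KO replicates 1 to 5 and 444, 424, 459.5 and 415 CPM in wild-type replicates 1 to 4 (-1.33 ± 0.40, adjusted p = 0.0359), the β-glucan receptor Dectin-1. Apoe was 4206, 4485, 5275, 6221 and 4823 CPM in KO replicates 1 to 5 and 9927, 9718, 9404 and 9449 CPM in wild-type replicates 1 to 4 (-0.94 ± 0.21, adjusted p = 0.00945). Apoe is the main lipid carrier of the brain. Timp2, a metalloproteinase inhibitor, fell by 0.79 ± 0.22 (adjusted p = 0.0254). The summed list was at 52900.3, 56727, 49846, 60106 and 50530.0 CPM in KO and 81427, 80757, 81970.2 and 80999 CPM in wild type.

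Among 24 phagocytosis and scavenger receptor genes 5 fell, including Clec7a, and none rose (median -0.17). The share that fell was 20.8%, against 3.67% of all genes. The scavenger receptors Cd36 and Colec12 were at 3968, 4554, 3031, 2404 and 1845 and 341, 365, 197, 285 and 174 CPM in KO, and at 6012, 6049.5, 6182 and 5613 and 516, 524, 507 and 518 CPM in wild type (-0.92 ± 0.27, adjusted p = 0.0358, and -0.92 ± 0.25, adjusted p = 0.0232). Both were below all wild-type libraries in every KO library. Itgb2, the shared chain of the leukocyte integrins and of complement receptor 3, fell by 0.68 ± 0.21 (adjusted p = 0.0389). C5ar2 was 0.535, 1.00, 0.5998, 1.99 and 1.54 CPM in KO replicates 1 to 5 and 10.2, 7.59, 8.69 and 8.72 CPM in wild-type replicates 1 to 4, the second receptor for complement C5a, which fell most of all named genes (-2.96 ± 0.41, adjusted p = 0.000132). The gene lies at chr7:16234585-16244154 (mm10).

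Without KO replicate 5, 2 disease-associated genes and 1 phagocytosis gene were called, with Spp1 at -1.51 (adjusted p = 0.0677) and Clec7a at -1.16 (adjusted p = 0.0743). Itgb2 (adjusted p = 0.0775), Cd36 (0.0768) and Colec12 (0.0506) were not called without it either, and Spp1 and Itgb2 were not called in limma-voom. Without KO replicate 3 or any 1 wild-type fibril library, 1 gene of each list was called. The disease-associated list had 2 calls without KO replicate 1 and 7 without KO replicate 4, and the phagocytosis list had 3 without wild-type control replicate 5. DESeq2 called 6 genes of each list lower and limma-voom 4 of each. Without the 7 libraries set apart, KO replicate 5 among them, 10 disease-associated and 8 phagocytosis genes fell.

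**Figure D3:**
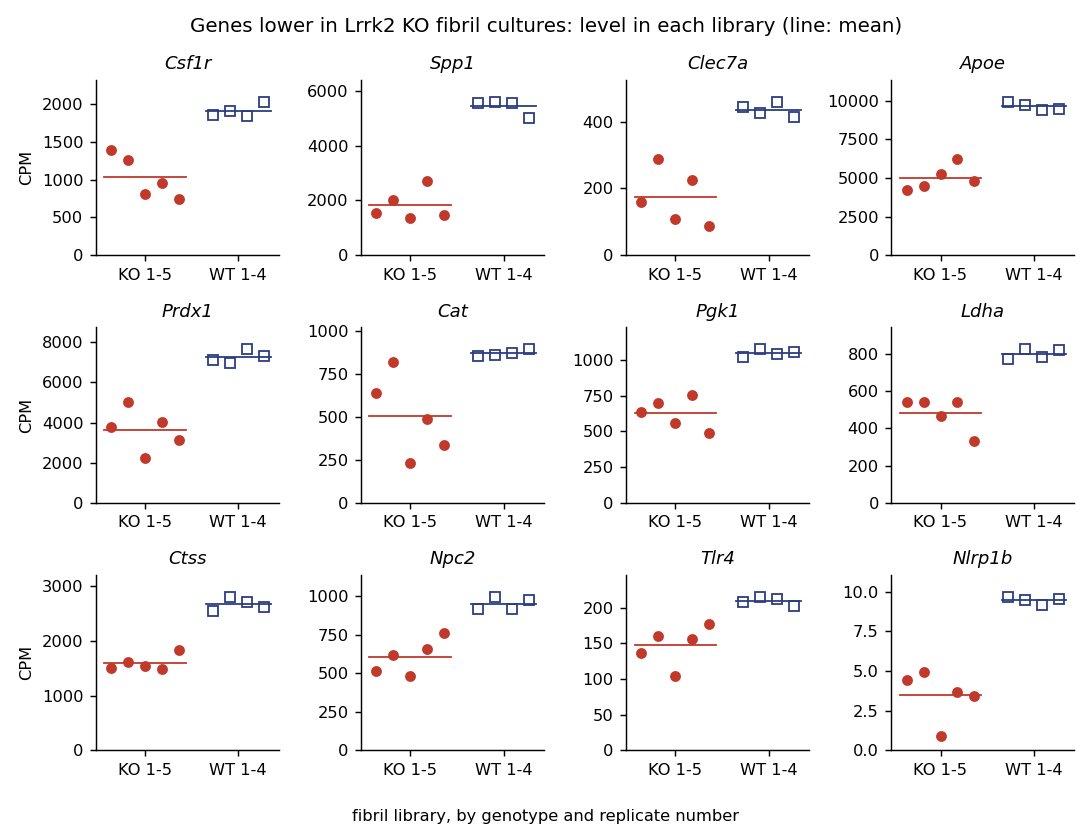
CPM in each fibril library of 12 genes lower in KO (KO replicates 1 to 5 as filled circles, wild-type replicates 1 to 4 as open squares, lines at group means, axes from 0). In all 12 the KO libraries lie below the wild-type libraries, and the KO libraries are more spread.

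Lysosomal genes fell in part. Of 35 tested 7 fell and none rose, with a median of -0.29, or -0.13 with library size as the only scaling, and in 16 every KO library was below every wild-type one, where 3.67% of all genes fell and 7.87% lay below in this way. Ctss was 1514, 1619, 1544, 1480.0 and 1828 CPM in KO replicates 1 to 5 and 2553, 2803, 2706 and 2621 CPM in wild-type replicates 1 to 4 (-0.74 ± 0.16, adjusted p = 0.00872). Ctss encodes cathepsin S, a protease of antigen-presenting cells. Npc2 was 514, 617, 482, 659 and 763 CPM in KO replicates 1 to 5 and 914, 995, 917 and 973 CPM in wild-type replicates 1 to 4 (-0.65 ± 0.17, adjusted p = 0.0188), the carrier of cholesterol out of lysosomes. Hexa, a subunit of β-hexosaminidase, fell by 0.37 ± 0.09 (adjusted p = 0.0179). Atp6v0d2 was 16.1, 26.8, 12.1, 24.0 and 5.15 CPM in KO replicates 1 to 5 and 71.9, 68.0, 67.9 and 73.1 CPM in wild-type replicates 1 to 4 (-2.06 ± 0.49, adjusted p = 0.0128), a subunit of the proton pump and the largest fall of the list. Without KO replicate 5 the count was again 7, without KO replicate 3 it was 3, and without wild-type replicates 1, 2, 3 and 4 it was 3, 4, 5 and 2. It was 4 with library size as the only scaling, 6 with limma-voom, 8 with DESeq2 and 17 without the 7 libraries set apart.

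Genes of the liver X receptor, which senses oxysterols and drives lipid efflux, fell in part: 3 of 11 fell, none rose, and 7 did not overlap (median -0.39, against 3.67% and 7.87% of all genes). Without KO replicate 4, 6 fell. Beside Apoe, the genes that fell were Nr1h3, which encodes the receptor itself, at 45.02, 39.6, 52.9, 35.9 and 35.1 CPM in KO and 62.2, 71.3, 63.5 and 71.4 CPM in wild type (-0.69 ± 0.19, adjusted p = 0.0282), and the phospholipid remodelling enzyme Lpcat3 (-0.39 ± 0.08, adjusted p = 0.00439). Nr1h3 was not called without KO replicate 5 (adjusted p = 0.0561). None of 19 cholesterol synthesis genes passed in edgeR, DESeq2 or limma-voom (1 at an unadjusted p under 0.05), with Insig1 at -0.60 ± 0.41 (adjusted p = 0.397).

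Of the 18 glycolytic genes 10 fell and none rose, with a median of -0.59, and in 14 every KO library was below every wild-type one, against 3.67% and 7.87% of all genes. Pgk1 was 635, 698, 556, 754 and 491 CPM in KO replicates 1 to 5 and 1022, 1073, 1037 and 1057 CPM in wild-type replicates 1 to 4 (-0.74 ± 0.20, adjusted p = 0.024). Ldha was 543, 539, 467, 542 and 329 CPM in KO replicates 1 to 5 and 769, 823, 781 and 821 CPM in wild-type replicates 1 to 4 (-0.72 ± 0.21, adjusted p = 0.0313). These encode phosphoglycerate kinase and the lactate dehydrogenase of anaerobic glycolysis. Pgam1 (-0.75 ± 0.20, adjusted p = 0.0228) and the aldolase gene Aldoa (-0.58 ± 0.17, adjusted p = 0.029) fell by similar amounts. The calls were not stable to the choice of libraries: none of the 18 passed without KO replicate 3, without KO replicate 5, or without any 1 wild-type replicate, although the median stayed between -0.51 and -0.60. The count was 6 without KO control replicate 3, KO LPS replicate 3 or wild-type LPS replicate 3 or 5, and 5 without wild-type control replicate 5. With library size as the only scaling 3 fell, and with limma-voom 5. DESeq2 called 11 lower and limma-voom with group weights 12. Without the 7 libraries set apart, KO replicate 5 among them, 12 fell. None of 34 nuclear genes of oxidative phosphorylation passed in edgeR, DESeq2 or limma-voom (5 at an unadjusted p under 0.05, median -0.05, with Cox5a at -0.29 ± 0.12 and Uqcrfs1 at -0.21 ± 0.09), nor any of 13 mitochondrially encoded genes (0 at an unadjusted p under 0.05, median 0.05, with mt-Nd2 at 0.44 ± 0.26 and mt-Co3 at -0.28 ± 0.23).

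Of 33 antioxidant genes tested 5 fell and none rose (median -0.35), and in 10 every KO library was below every wild-type one, against 3.67% and 7.87% of all genes. Prdx1 was 3801, 5032, 2225, 4048 and 3122 CPM in KO replicates 1 to 5 and 7121, 6986, 7646 and 7334 CPM in wild-type replicates 1 to 4, a peroxidase of hydrogen peroxide and one of the most abundant transcripts of the list (-0.996 ± 0.23, adjusted p = 0.0107). Cat was 639.9, 820.0, 229, 489 and 333 CPM in KO replicates 1 to 5 and 855, 859.6, 872 and 891 CPM in wild-type replicates 1 to 4 (-0.79 ± 0.23, adjusted p = 0.0291). Catalase thus ranged widely among KO libraries, with replicate 2 close to wild type and replicate 3 lowest. The glutathione genes Gss (-0.57 ± 0.12, adjusted p = 0.00692) and Gsr (-0.39 ± 0.12, adjusted p = 0.0393) fell, as did G6pdx, which supplies NADPH (-0.60 ± 0.18, adjusted p = 0.033). Superoxide dismutase 2 did not: Sod2 was 1011, 871, 1110.1, 749 and 885 CPM in KO replicates 1 to 5 and 917, 965, 953 and 858 CPM in wild-type replicates 1 to 4 (0.00 ± 0.14, adjusted p = 0.993), with overlapping ranges. The stress-inducible Hmox1 and Nqo1 did not pass, at -0.76 ± 0.35 (adjusted p = 0.172) and -0.36 ± 0.33 (adjusted p = 0.554). Cat (adjusted p = 0.0644) and G6pdx (0.058) were not called without KO replicate 5, nor was Gsr in limma-voom. The count was 4 without KO replicate 5, 2 without KO replicate 3 or any 1 wild-type fibril library, 9 without KO replicate 1, 10 without KO replicate 2 and 3 without wild-type control replicate 5.

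Of 9 genes of the phagocyte NADPH oxidase, which makes superoxide, 2 fell (22.2%, against 3.67% of all genes) and none rose. They were the voltage-gated proton channel Hvcn1 (-0.65 ± 0.15, adjusted p = 0.00999) and Cyba, the p22phox subunit (-0.37 ± 0.11, adjusted p = 0.0314). Hvcn1 was 158, 198, 95.2, 141 and 127 CPM in KO replicates 1 to 5 and 222, 218, 231 and 232 CPM in wild-type replicates 1 to 4, with no overlap between genotypes. Cyba did not pass without KO LPS replicate 3, wild-type control replicate 5, any 1 wild-type fibril library or any KO fibril library other than replicate 2.

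**Figure D4:**
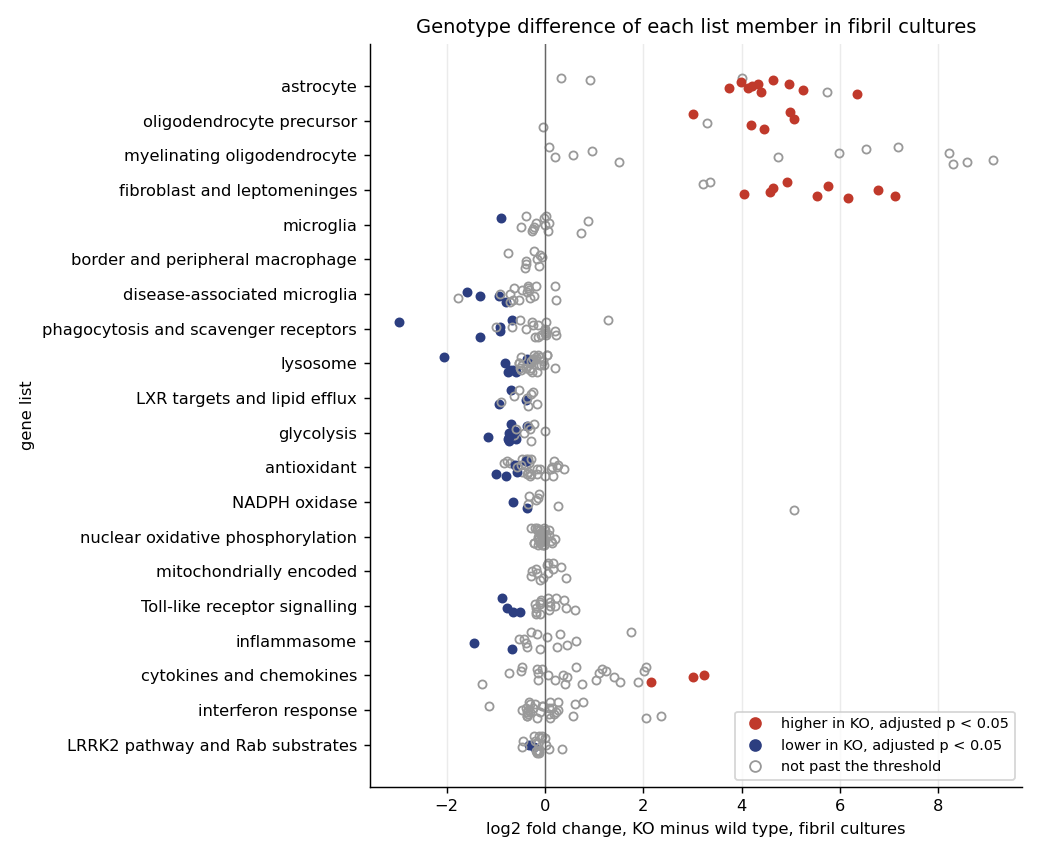
Log2 fold change (KO minus wild type, fibril cultures) of each tested member of 20 gene lists, filled where the adjusted p was under 0.05. Astrocyte, precursor and fibroblast markers lie between 3.01 and 7.12 where called, while called members of the microglial, lysosomal, glycolytic and antioxidant lists lie left of 0.

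Of 21 genes of Toll-like receptor signalling 4 fell and none rose, where 3.67% of all genes fell. The median was -0.10, or 0.05 with library size as the only scaling. Irak4 encodes the kinase that links MyD88 to NF-κB. Irak4 was 17.4, 18.5, 16.5, 17.3 and 18.9 CPM in KO replicates 1 to 5 and 29.98, 27.7, 28.6 and 24.8 CPM in wild-type replicates 1 to 4 (-0.65 ± 0.08, adjusted p = 4.18e-05). The gene lies at chr15:94543643-94581815 (mm10), on the chromosome of Lrrk2. Tlr4 was 137, 161, 104, 156 and 177 CPM in KO replicates 1 to 5 and 208, 215, 212 and 202 CPM in wild-type replicates 1 to 4, the LPS receptor (-0.51 ± 0.11, adjusted p = 0.00983). The endosomal sensors Tlr8 (-0.77 ± 0.24, adjusted p = 0.0417) and Tlr13 (-0.88 ± 0.28, adjusted p = 0.0495) fell too, with KO replicate 5 at the wild-type level of Tlr8 and KO replicates 1 and 2 near that of Tlr13. Without KO replicate 5 Tlr13 was not called (adjusted p = 0.106). The count was 2 without KO replicate 3 or 4, wild-type control replicate 5 or any 1 wild-type fibril library, and 1 gene of the list rose without KO replicate 1 or 2.

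Of 15 inflammasome genes 2 fell (13.3%, against 3.67% of all genes) and none rose. Naip2 was 88.0, 89.1, 87.6, 92.9 and 118 CPM in KO replicates 1 to 5 and 145, 162, 154 and 145 CPM in wild-type replicates 1 to 4 (-0.67 ± 0.10, adjusted p = 0.000269), a sensor of bacterial secretion systems. Nlrp1b was 4.42, 4.94, 0.8998, 3.71 and 3.42 CPM in KO replicates 1 to 5 and 9.67, 9.48, 9.17 and 9.51 CPM in wild-type replicates 1 to 4 (-1.44 ± 0.25, adjusted p = 0.0019), whose product senses proteases such as anthrax lethal factor. Naip2 belongs to a family of near-identical copies, so its counts may be shared with other members. Without KO replicate 5, 6 inflammasome genes fell.

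Among cytokine and chemokine genes 3 of 27 rose (11.1%, against 5.27% of all genes) and none fell. The median was 0.63, but 0.05 with limma-voom. Without KO replicate 2 there were 5 higher, without KO replicate 3 or 5 there were 2, and in limma-voom none. Csf1 was 17.1, 4.44, 11.4, 3.50 and 11.5 CPM in KO replicates 1 to 5 and 2.23, 2.41, 2.07 and 1.85 CPM in wild-type replicates 1 to 4, the growth factor of microglia (2.16 ± 0.44, adjusted p = 0.00586). Lif, a cytokine of the IL-6 family, was at 1.16, 0.251, 1.55, 0.366 and 0.626 CPM in KO and 0, 0.0915, 0.243 and 0 CPM in wild type (3.23 ± 0.74, adjusted p = 0.0107). Ccl7 was 4.10, 1.26, 14.8, 10.8 and 121 CPM in KO replicates 1 to 5 and 2.94, 4.45, 3.34 and 4.23 CPM in wild-type replicates 1 to 4 (3.02 ± 0.94, adjusted p = 0.0439). This monocyte chemokine was carried by KO replicate 5, without which its difference was 1.03 (adjusted p = 0.414). The main inflammatory cytokines did not pass the test. Il1b was 75.4, 41.1, 457, 96.3 and 478 CPM in KO replicates 1 to 5 and 73.2, 103, 82.6 and 58.4 CPM in wild-type replicates 1 to 4 (1.53 ± 0.58, adjusted p = 0.093), so only KO replicates 3 and 5 were clearly above wild type. Il6 differed by 2.02 ± 0.77 (adjusted p = 0.0939) with the same 2 libraries highest, at 11.9 and 14.5 CPM, and Tnf by 0.36 ± 0.22 (adjusted p = 0.317).

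In the NF-κB and feedback list 1 of 20 rose, a share near the 5.27% of all genes, and none did in limma-voom. Socs3 was 58.9, 33.4, 233, 57.2 and 164 CPM in KO replicates 1 to 5 and 34.6, 43.1, 38.2 and 36.3 CPM in wild-type replicates 1 to 4, an inhibitor of JAK-STAT signalling, again with KO replicates 3 and 5 highest (1.52 ± 0.38, adjusted p = 0.0173). No gene of this list passed without KO replicate 3 or wild-type replicate 1, 3 or 4, while 3 passed without KO replicate 2 and 2 without KO control replicate 6. None of 31 interferon response genes passed in edgeR, DESeq2 or limma-voom, and 0 had an unadjusted p under 0.05. Their sum was 955, 802, 2446, 4709.6 and 12061 CPM in KO and 3740.0, 5369, 4453 and 4465 CPM in wild type, so KO replicate 5 was above and KO replicates 1 and 2 below every wild-type library. Ifi44 was at 0.714, 0.209, 3.35, 4.39 and 61.2 CPM in KO and 2.58, 3.42, 2.25 and 2.59 CPM in wild type (2.36 ± 1.29, adjusted p = 0.267). None of 17 antigen presentation genes passed either (0 at an unadjusted p under 0.05), and their sum ran from 5088 CPM in KO replicate 1 to 12676 CPM in KO replicate 5, on both sides of the wild-type range of 8368 to 9849 CPM.

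Of 20 genes of the LRRK2 pathway and its Rab substrates 2 fell (10%, against 3.67% of all genes) and none rose. The median was -0.14, or 0.01 with library size as the only scaling, where none fell. In 5 every KO library was below every wild-type one, against 7.87% of all genes. Rab12 was 66.6, 70.9, 65.6, 77.8 and 71.2 CPM in KO replicates 1 to 5 and 87.3, 88.4, 86.7 and 88.1 CPM in wild-type replicates 1 to 4 (-0.32 ± 0.07, adjusted p = 0.0124), a Rab GTPase that LRRK2 phosphorylates. The early endosome GTPase Rab5a fell by 0.22 ± 0.06 (adjusted p = 0.035). Rab5a did not pass without KO replicate 1, 2 or 3, any 1 wild-type fibril library, KO LPS replicate 3 or wild-type control replicate 5. Of 19 genes linked to Parkinson's disease 1 rose and 1 fell (5.26% each, where 5.27% of all genes rose and 3.67% fell). Atp13a2, a lysosomal polyamine exporter, fell (-0.56 ± 0.14, adjusted p = 0.0173). Mapt, the gene of the neuronal protein tau, rose from 1 wild-type count to 147 KO counts, a ratio of 125 with an interval of 22.2 to 4988 (adjusted p = 0.00958). Atp13a2 was not called without KO replicate 3 or wild-type replicate 2 or 4, and Mapt was not called in limma-voom.

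Among the remaining lists calls were few, where 5.27% of all genes rose and 3.67% fell. In the stress response list the serine pathway enzymes Psat1 (0.42 ± 0.13, adjusted p = 0.0464) and Shmt2 (0.68 ± 0.20, adjusted p = 0.0355) rose and Atf3 fell (-0.79 ± 0.22, adjusted p = 0.0263). Of 26 immediate early genes Egr2 (-1.67 ± 0.38, adjusted p = 0.0105) and Ier5 (-0.50 ± 0.16, adjusted p = 0.0499) fell, and of 31 cell cycle genes Pcna did (-0.53 ± 0.16, adjusted p = 0.0355). None of 40 ribosomal protein genes (Rpl23 -0.38 ± 0.13, adjusted p = 0.069), 18 replication histone genes or 5 sex-linked genes passed in edgeR or limma-voom, with 5, 2 and 0 at an unadjusted p under 0.05 and 0, 1 and 0 called by DESeq2. No stress response gene passed without KO replicate 1 or 3 or any 1 wild-type fibril library, and 1 did without KO replicate 5. Pcna did not pass without KO replicate 1, 3 or 5, any 1 wild-type fibril library, KO LPS replicate 3 or wild-type control replicate 5, and without KO replicate 5 the cell cycle list had 4 genes higher and none lower. Without KO replicate 4 the immediate early list had 2 genes higher and 2 lower. Psat1 and Shmt2 were not called in limma-voom. Outside the lists and apart from Lrrk2, the largest falls among called genes with an edgeR average log2 CPM of 2 or more were those of Iqgap2, a scaffold of the actin cytoskeleton, and the interleukin-7 receptor gene Il7r. Iqgap2 was 6.65, 3.43, 5.00, 10.6 and 45.1 CPM in KO replicates 1 to 5 and 96.7, 98.1, 95.2 and 97.1 CPM in wild-type replicates 1 to 4 (-2.78 ± 0.49, adjusted p = 0.00188), and Il7r was 8.39, 8.54, 2.05, 3.24 and 2.41 CPM in KO replicates 1 to 5 and 25.3, 24.7, 27.4 and 25.5 CPM in wild-type replicates 1 to 4 (-2.37 ± 0.60, adjusted p = 0.0179). Pde1c, Angptl2, Mfge8 (a bridge between phagocytes and dying cells) and Rnf144b followed, at -1.93 ± 0.60, -1.86 ± 0.44, -1.72 ± 0.51 and -1.697 ± 0.44 (adjusted p = 0.0438, 0.0129, 0.0344 and 0.0193). Pde1c (adjusted p = 0.0722) and Mfge8 (0.0677) were not called without KO replicate 5, nor was Rnf144b in limma-voom.

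When the other-cell score entered the model as a covariate, 82 genes were called (28 higher, 54 lower), of which 57 were among the 1282 (26 higher, 31 lower). Every KO fibril library had a higher score than every wild-type fibril library, and the slope of the covariate comes from the spread within all 6 groups. Markers of astrocytes, precursors and fibroblasts are part of the score, so a loss of their calls was built into this model. None of these markers was called with the covariate, and their medians went from 4.28, 4.20 and 4.93 to 0.74, 1.06 and 3.36. No disease-associated, lysosomal, glycolytic, antioxidant or NADPH oxidase gene was called either, and the medians of the first 4 of these lists went from -0.52, -0.29, -0.59 and -0.35 to 0.12, -0.03, -0.22 and -0.14. Nor was any gene of the microglial, cytokine, NF-κB, LRRK2 pathway, Parkinson's disease, stress response, immediate early or cell cycle lists. In the Toll-like receptor signalling list 1 gene was called, and the Iqgap2 call was lost. Called with and without the covariate were Lrrk2 (-3.05 with it), C5ar2 (-2.26), Irak4 (-0.62), Naip2 (-0.47), Nlrp1b (-1.39), Lpcat3 (-0.51), Nnt (0.71) and Wdfy1 (1.24). Among cholesterol synthesis genes 8 of 19 were called lower with the covariate alone, with a median of -1.48 in place of -0.14.

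Part of the genotype difference was also present without fibrils. Of 46 genes called between genotypes in controls (0.321%), 37 were also called with fibrils in the same direction, 80.4% of the control calls and 2.89% of the fibril calls. Of 248 called with LPS (1.73%), 44 were called with fibrils in the same direction (17.7% and 3.43%). All 5 tested sex-linked genes were called between genotypes with LPS (median 0.93), against 0 in controls and 0 with fibrils. In all 3 treatments 29 genes were called in 1 direction, and 13 of these lie on chromosome 7 (1075 genes tested), 5 on chromosome 13 (565) and 3 each on chromosomes 15 (532) and 18 (370). They include Lrrk2, Irak4, C5ar2, Naip2, Iqgap2 and Nnt, the mitochondrial transhydrogenase that C57BL/6J mice carry with a deletion. Nnt was 59.6, 60.2, 45.9, 60.5 and 45.6 CPM in KO replicates 1 to 5 and 31.6, 31.6, 31.1 and 30.5 CPM in wild-type replicates 1 to 4 (0.80 ± 0.10, adjusted p = 4.18e-05). Its difference was 0.95 ± 0.09 in controls and 1.08 ± 0.10 with LPS, and Irak4 was at -0.65 ± 0.08 and -1.0 ± 0.08. Wdfy1, another gene known to differ between C57BL/6 substrains, rose with fibrils (0.79 ± 0.21, adjusted p = 0.024), but was not called without KO replicate 5 or any 1 wild-type fibril library, nor in limma-voom. Within 3 Mb of Lrrk2, 45 genes were tested and 5 called, where 8.94% of all genes were: Kif21a (4.01 ± 0.72), Cntn1 (4.00 ± 0.91) and Mlc1 (4.34 ± 1.15) rose and Irak4 and Rabl2 (-0.70 ± 0.20) fell (adjusted p = 0.00199, 0.0104, 0.0215 and 0.0263 for the first 3 and Rabl2). Mlc1 and Rabl2 were not called without wild-type replicate 1, 2 or 3, Rabl2 not without KO replicate 3 or 5 (adjusted p = 0.0591 without replicate 5), and Cntn1 and Mlc1 not in limma-voom.

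**Figure D5:**
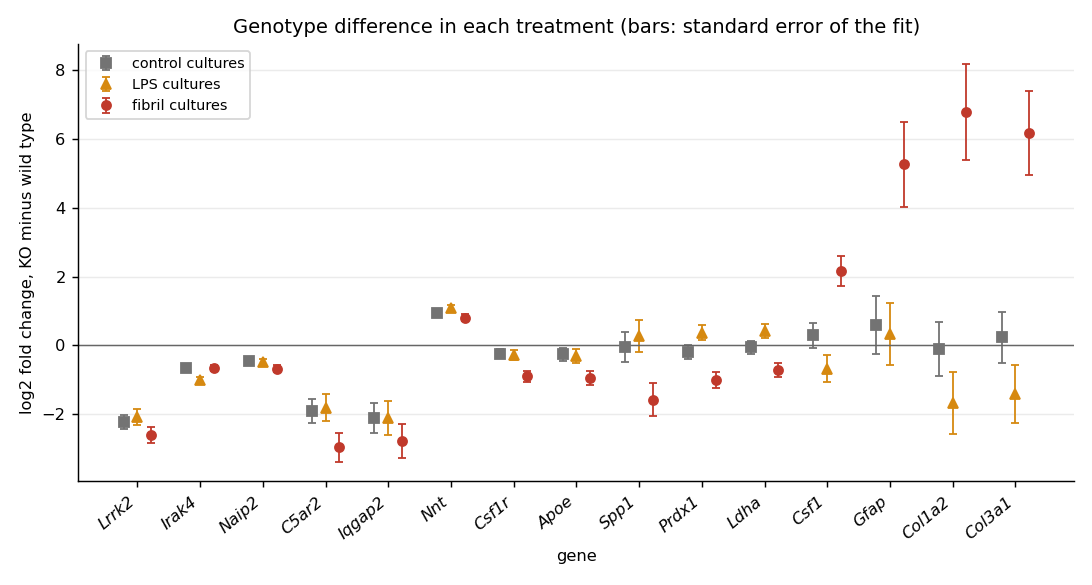
Log2 fold change (KO minus wild type) ± SE of 15 genes in control, LPS and fibril cultures. Lrrk2, Irak4, Naip2, C5ar2, Iqgap2 and Nnt lie on the same side of 0 in all 3 treatments, whereas Spp1, Prdx1, Ldha, Csf1, Col1a2 and Col3a1 have point estimates of different sign across treatments.

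Whether the genotype difference itself depended on treatment was tested with interaction terms. Against controls no gene passed in edgeR, with 1667 genes at an unadjusted p under 0.05, 67 calls by DESeq2, 0 by limma-voom and 250 without the 7 libraries set apart, and 12 without wild-type control replicate 6 alone. Csf1r, for example, differed by -0.24 ± 0.14 in controls and -0.90 ± 0.16 with fibrils, a difference of -0.66 ± 0.21 (adjusted p = 0.319), and Spp1 by -0.04 ± 0.43 and -1.58 ± 0.48, a difference of -1.54 ± 0.64 (adjusted p = 0.37). Neither of these 2 differences passed the test.

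Against LPS 161 genes passed (1.12%), among them 6 of 11 fibroblast markers and 0 of 5 sex-linked genes. The LPS libraries also differed between genotypes in sex-linked RNA, and the effect of this on the calls was not tested. Col1a2 differed by -1.67 ± 0.91 with LPS and 6.78 ± 1.39 with fibrils, a difference of 8.46 ± 1.68 (adjusted p = 0.0257). Its level was 1.03 to 13.2 CPM in KO LPS, 0 to 35.5 CPM in wild-type LPS and 0 to 0.213 CPM in wild-type fibril libraries. Csf1 (2.83 ± 0.59, adjusted p = 0.0287) and Lif (3.89 ± 0.92, adjusted p = 0.0366) were the cytokines that passed. In the other direction passed Prdx1 (-1.36 ± 0.32, adjusted p = 0.0352), Gss (-0.82 ± 0.17, adjusted p = 0.0257), Gsr (-0.74 ± 0.17, adjusted p = 0.0352), Hvcn1 (-0.85 ± 0.20, adjusted p = 0.0366), Pgk1 (-1.13 ± 0.28, adjusted p = 0.0449), Ldha (-1.13 ± 0.29, adjusted p = 0.0486) and Lpcat3 (-0.42 ± 0.11, adjusted p = 0.0474). Gsr was 301, 275, 241, 259 and 294 CPM in KO replicates 1 to 5 and 347, 382, 349 and 364 CPM in wild-type replicates 1 to 4, and it was at 144 to 225 CPM in KO LPS and 132 to 173 CPM in wild-type LPS libraries. Prdx1 was at 6986 to 7646 CPM in wild-type fibril libraries and at 2043 to 4303, 2211 to 4206, 2015 to 2931, 2844 to 5785 and 2225 to 5032 CPM in wild-type control, wild-type LPS, KO control, KO LPS and KO fibril libraries, so the wild-type fibril libraries stood above every other library of the series. The 161 calls were 1, 1, 2 and 6 without wild-type fibril replicates 1 to 4, 1, 2, 524 and 73 without KO LPS replicates 1 to 4, 80, 628, 52, 455 and 42 without KO fibril replicates 1 to 5, and 20, 42, 92, 95 and 332 without wild-type LPS replicates 1, 3, 4, 5 and 6. They were 246 and 401 without KO control replicates 4 and 6 and 389 without wild-type control replicate 6, and 1020 with DESeq2, 21 with limma-voom and 2 with the other-cell score as a covariate.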

How the data were processed

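Per the labels' protocols, RNA of primary microglia was depleted of ribosomal RNA and sequenced as stranded single-end libraries. The authors deposited expected counts, one whole number for each Ensembl transcript and library, with no scaling. CASAVA 1.7.1, STAR 2.4.2a and the mm10 build are named in the submitters' processing notes. No counting program is named in the sources used here.

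Transcript counts were added up per gene after GENCODE M21, in which 91320 of 94647 transcripts were found (the rest held 0.779% to 0.891% of a library's counts). No 2 libraries were identical. Of 25899 genes with counts, 14346 passed edgeR's filter on low counts. A quasi-likelihood model with a mean for each of 6 groups was fitted to all 30 libraries in edgeR 4.0.16 (R 4.3.3, TMM scaling), with 24 residual degrees of freedom and a common coefficient of biological variation of 0.294. It was tested on simulated data that gave each gene the same spread in all groups, so the unequal spread of the fibril groups was not covered. Counting intervals are exact binomial at 95%. Intervals and floors cover counting error only, since reads carry no molecular identifiers. Overlapping and near-identical genes may share reads.

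The members and the 39 gene lists were chosen with earlier results of these data known. Genes were named by rule: the 10 called genes that rose most and the 10 that fell most, where edgeR's average log2 CPM (prior count 2) was 2 or more, apart from numbered gene models. This average is the log2 of a mean CPM fitted over all libraries, not a mean of each library's log2 CPM. From every list the rule took up to 4 called genes by smallest p, or 2 genes where none was called, and all genes that make up a count of at most 5. It also took Lrrk2, Lrrk1, Sod2, Tnf, Il1b, Il6, Hmox1, Nqo1, Nos2 and 16 cell type markers. Some genes it took are not reported here.

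The alternatives were other scaling (RLE, or library size alone), other filters (none, or a CPM of at least 1 in at least 4 libraries), DESeq2 1.42.0, limma-voom (limma 3.58.1), a fit of only the groups compared, each library left out, a replicate block, 1 surrogate variable (sva 3.50.0), the other-cell score as a covariate, leaving out 7 libraries, and protein-coding genes only. Limma-voom with group weights was added after seeing the data, because spread differed between groups.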

Additional observations from a re-analysis of the deposited data

Results flagged for a closer look

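Single libraries stood apart from the rest of their group by the gap to the nearest library over the group's range (Dixon's ratio), in 21 of 280 groups of values tested, of which chance would mark about 1 in 20. Among KO fibril libraries, replicate 5 was apart for Tlr8 (ratio 0.754), Naip2 (0.801), Tapbp (0.784), Hist1h1a (0.751) and Tmem119 (0.727). Replicate 3 was apart for Rnf144b (0.764), Nlrp1b (0.779) and Hmox1 (0.788), and replicate 1 for Pax6 (0.828).

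Among wild-type fibril libraries, replicate 1 was apart for Gfap (0.887) and for the summed astrocyte markers (0.882), both by a lower value. Replicate 4 was apart for Col6a1 (0.835), Cyba (0.971) and Spp1 (0.906), and replicate 2 for Insig1 (0.903). Ccn2, Olig2, Cldn11, Pax6, Mapt and the erythroid sum had a ratio of 1, because 1 wild-type library held the gene's or list's only counts.

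The genotype difference with fibrils differed from that with LPS in 161 genes by an interaction term (edgeR, adjusted p under 0.05). Among the named genes it was larger with fibrils in the log2 difference of differences for Col1a1 (9.66), Cd209f (9.19), Col1a2 (8.46), Col3a1 (7.58), Dcn (6.02), Nid1 (6.00), Fbn1 (5.99), Col6a1 (5.54), Lif (3.89) and Csf1 (2.83). It was lower with fibrils for Prdx1 (-1.36), Ldha (-1.13), Pgk1 (-1.13), Hvcn1 (-0.85), Gss (-0.82), Gsr (-0.74) and Lpcat3 (-0.42). With the other-cell score as a covariate, 2 genes passed this interaction in place of 161.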

How the results depend on the processing

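The 1282 calls with fibrils became 826 with no filter on low counts, 1957 with DESeq2, 575 with limma-voom, 757 with only the groups compared, 82 with the other-cell score, 2580 without the 7 libraries that stand apart and 1969 with limma-voom with group weights, and ranged from 375 to 1639 with each library left out. The 756 higher genes became 1360 with DESeq2, 116 with limma-voom, 486 with only the groups compared, 28 with the score and 1485 without the 7 libraries, and 198 to 926 with each library left out. The 526 lower genes became 190 with library size as the only scaling, 219 with no filter, 271 with only the groups compared, 54 with the score, 1095 without the 7 libraries and 971 with group weights, and 177 to 759 with each library left out. Apart from the replicate block, given below, other settings kept these 3 counts within 1.5 times. The interaction against controls went from 0 to 67 with DESeq2, 250 without the 7 libraries and 0 to 12 with each library left out (12 without wild-type control replicate 6). The interaction against LPS went from 161 to 71 with no filter, 1020 with DESeq2, 21 with limma-voom, 591 with only the groups compared, 2 with the score, 431 without the 7 libraries and 1001 with group weights, and 1 to 628 with each library left out. The cause was not tested.

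Replicate numbers did not pair the libraries. The correlations of same-numbered KO and wild-type fibril libraries, as deviations from group means across genes, were -0.0798, -0.053, -0.0329 and -0.0065, and none of these 4 KO libraries correlated best with its own number. With a replicate block the calls were 2114 (1220 higher, 894 lower) with fibrils and 714 for the interaction against LPS.

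Of the named genes' values, 35 changed sign, and the cause was not tested. With the other-cell score these were Fabp7 (-0.0022), Foxj1 (-0.0069), Tapbp (0.0805), Sod2 (-0.0011), Hmox1 (0.25), Mbp (-0.74) and Sox10 (-1.60). Ifi44 was -0.17 with limma-voom with and without group weights, -0.35 without the 7 libraries, and -0.35 (without KO replicate 5) to 2.67 with each library left out. Lrrk1 was 0.022 with library size as the only scaling. Cx3cr1 was 0.0016 without the 7 libraries. Sod2 was -0.0075 with limma-voom with and without group weights and -0.0095 with 1 surrogate variable, and -0.0707 to 0.0721 with each library left out. With each library left out Mbp was -0.22 (without KO replicate 2) to 0.38 and Cx3cr1 -0.45 to 0.0034 (without KO replicate 5). Tmem119 was 0.027 with RLE scaling, 0.15 with library size as the only scaling, 0.014 with no filter, 0.0074 with the CPM filter, 0.0264 with DESeq2, 0.0112 with only the groups compared, 0.0141 with the replicate block, 7e-04 with 1 surrogate variable, 0.20 without the 7 libraries, and -0.17 (without KO replicate 2) to 0.20 (without KO replicate 5) with each library left out. Counts of the gene lists moved by over 1.5 times in 305 cases and by less in 1372. Depth limits the wild-type values of other-cell markers, several of which rest on 0 to 3 counts.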
